A study of Mus musculus with 6 samples.

Results

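The insulin-like growth factor (IGF) family was followed in muscle stem cells (MuSCs), the resident stem cells of skeletal muscle. The family was taken as the 10 rows of the table whose gene symbol is Igf1, Igf2, Igf1r, Igf2r or Igfbp2 to Igfbp7, out of 18943 listed genes. Of these, 9 had a mean value of at least 5 over all libraries and entered the test, as did 13921 genes in all, and Igf1 lay below that limit. MuSCs were sorted from 8-week-old WT C57BL/6 mice and kept in culture for 5 days. The cells received DMSO, the solvent control, 100 nM ET-3 (Endothelin-3) or 100 nM NT (Neurotensin), each represented here by 2 libraries. These concentrations stand in the sample labels, and the paper's methods state others. ET-3 and NT are peptides that act on G protein-coupled receptors, and the study asked what they do to the transcriptome of MuSCs.

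The 6 libraries held 3629134 to 5396233 reads on genes each, recovered from deposited values that are read counts multiplied by 1 factor per library. Values of replicate libraries differed by a mean chi-square per gene of 1.45 for the DMSO pair, 0.891 for the ET-3 pair and 0.953 for the NT pair, where 1 is repeated sampling of the same RNA. The treated pairs thus differed by no more than sampling noise, and the labels do not say whether they came from separate cultures or animals, so all p-values measure the spread between these libraries, which may be technical. A figure legend of the paper speaks of biological samples for this RNA-seq, and of more per group than the 2 libraries here. Members whose call is lost when each treated pair is averaged and counted as 1 sample are named as such. MuSC and myoblast markers were present in every library (8 of 8 listed, values summing to 7945 to 10465) and moved both ways. Pax7 was at 857 and 1070 with DMSO and 1599 to 1754 with a ligand. Cdh15 was at 1547 and 1746 against 436 to 496. Macrophage markers summed to 34 to 62 (4 of 8 listed, without Ptprc and Adgre1) and endothelial markers to 21 to 56 (5 of 8 listed). Fibroadipogenic markers (6 of 8 listed) moved both ways. Cd34 was at 5 and 1 with DMSO and 264 to 330 with a ligand, and Col1a1 at 148 and 146 against 2 to 8. The sums, mostly of Col3a1, were 1629 and 1789 against 1322 to 1437. Cd34 and Pax7 rose in the same libraries, and which cells held Cd34 was not tested. Schwann cell markers (4 of 6 listed), mostly Ncam1, summed to 3393 and 3580 with DMSO and to 1739 to 1840 with a ligand.

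IGF1 and IGF2 are secreted peptides that signal through the receptor tyrosine kinase IGF1R. IGF2R, the cation-independent mannose phosphate receptor, binds IGF2 and delivers it to lysosomes, which removes it from the cell surface. The IGF-binding proteins hold the ligands outside the cell, prolong their life and either withhold them from the receptor or release them when proteases cut the binding protein. In skeletal muscle the ligands act on both the growth of myoblasts and their differentiation, and differentiating myoblasts make IGF2 themselves. Igf2 is an imprinted gene expressed from the paternal allele, and Igf2r is expressed from the maternal allele in most mouse tissues.

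The family moved mostly downwards. ET-3- and NT-treated MuSCs held 21.7- and 17.8-fold less Igf2 and 8.57- and 6.14-fold less Igfbp7 than DMSO-treated cells, respectively, and 1.88- to 2.12-fold less Igf2r, Igfbp2 and Igfbp6. Igfbp3 was the single member that rose. Igf1r, Igfbp4 and Igfbp5 were lower by smaller amounts. Under ET-3, 8 of the 9 tested members were lower (adjusted p at most 0.05, limma with Benjamini-Hochberg adjustment over all tested genes), against 33.2% of all genes tested, and 1 was higher, against 30.6%. Under NT, the counts were likewise 8 lower, against 32.5%, and 1 higher, against 29.7%. With the added limit of a 2-fold change, 3 members were downregulated by ET-3 (Igf2, Igfbp2 and Igfbp7), against 14.9% of all genes, and 1 (Igfbp3) was upregulated, against 6.62%. For NT, 3 were downregulated (again Igf2, Igfbp2 and Igfbp7), against 13.2%, and 0 were upregulated, against 7.30%. The 0 was also 0 at an unadjusted p under 0.05 with 2-fold change, and 0 with voom weights. The median log2 fold change of the tested members was -0.91 for ET-3 and -0.92 for NT, beside -0.01 and -0.01 for all tested genes. Both comparisons use the same DMSO libraries and are therefore not independent of each other. In bulk RNA, fewer cells of a type that makes a transcript and less of that transcript per cell cannot be told apart.

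Promoter sequences of the members that changed the most in each direction are shown first, since the values below turn on these genes. They were taken from RefSeq (GRCm38.p6), which gave 14 promoters for the 10 members, 300 bases each, running from 250 bases before the transcription start to 50 after it. Capitals mark matches to CANNTG, the E-box letters read by basic helix-loop-helix factors such as MyoD, and to GGAATG, the letters read by TEAD factors, on either strand. Igf2 has 4 promoters in the table, of which the one closest to its coding exons is shown, at chr7:142657447-142657746 on the minus strand. The Igfbp7 promoter lies at chr5:77407996-77408295 on the minus strand and the Igfbp3 promoter at chr11:7213874-7214173 on the minus strand.
Igf2: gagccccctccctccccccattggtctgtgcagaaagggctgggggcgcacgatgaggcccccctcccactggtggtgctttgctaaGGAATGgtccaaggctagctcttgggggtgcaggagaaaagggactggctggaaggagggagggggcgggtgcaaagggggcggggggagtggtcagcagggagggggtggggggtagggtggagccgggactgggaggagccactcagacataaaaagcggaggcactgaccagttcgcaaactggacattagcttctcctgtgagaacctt
Igfbp7: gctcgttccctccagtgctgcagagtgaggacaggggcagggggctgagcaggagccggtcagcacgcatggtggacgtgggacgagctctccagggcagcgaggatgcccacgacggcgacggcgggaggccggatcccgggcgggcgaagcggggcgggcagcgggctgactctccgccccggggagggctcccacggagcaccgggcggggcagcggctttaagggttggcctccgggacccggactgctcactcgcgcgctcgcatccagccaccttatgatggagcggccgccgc
Igfbp3: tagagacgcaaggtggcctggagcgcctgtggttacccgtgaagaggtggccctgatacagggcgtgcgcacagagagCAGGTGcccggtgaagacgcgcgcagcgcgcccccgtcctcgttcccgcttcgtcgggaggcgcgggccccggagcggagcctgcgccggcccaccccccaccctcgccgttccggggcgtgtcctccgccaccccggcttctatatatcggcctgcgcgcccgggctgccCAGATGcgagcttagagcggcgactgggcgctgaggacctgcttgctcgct
The Igf2 window holds 1 match to GGAATG and none to CANNTG. The Igfbp7 window holds neither, and the Igfbp3 window holds 2 matches to CANNTG. Of the other Igf2 windows, those starting at 142661222 and 142658755 hold 2 and 1 matches to GGAATG, and the remaining member with a match to it is Igfbp5. CANNTG has 2 matches in the Igf2 window starting at 142666767, 1 in that at 142658755 and 0 in that at 142661222. GGAATG occurs in 14.7% and CANNTG in 72.3% of the 32851 promoters of this length. CAGCTG, the form of CANNTG preferred by MyoD and myogenin, occurs in 16.3% of them and among the members in the Igf1 window alone. TGANTCA, the AP-1 letters, occurs in 7.81% of them and among the members in Igf1 and 1 of 2 Igfbp2 windows. These are matches of letters and say nothing on binding.

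**Figure D1:**
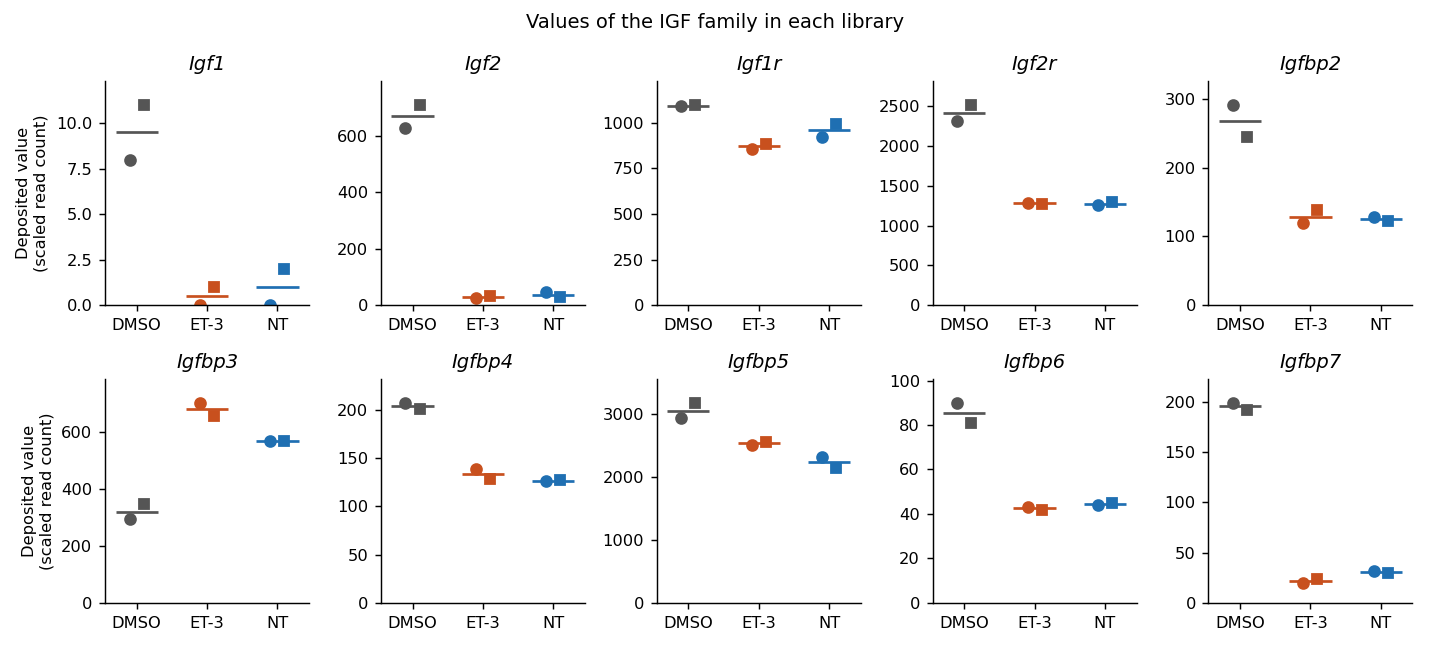
Deposited value (read count multiplied by the library's factor, linear axis from 0) of each of the 10 members in the DMSO, ET-3 and NT libraries. Circles are replicate 1, squares replicate 2 and horizontal lines the mean of each group. Igfbp3 is the only member whose treated means lie above its DMSO mean.

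Of the ligands, Igf2 showed the largest change of any tested member under either peptide. Igf2 (chr7:142650766-142666816, minus strand, GRCm38), the fetal growth factor that differentiating myoblasts secrete, had values of 630 and 710 in DMSO cultures, 27 and 33 after ET-3 and 46 and 29 after NT. All 4 treated libraries lay far below both DMSO libraries, and the libraries of ET-3 and NT overlapped. The means were 670.0 ± 56.6, 30.0 ± 4.24 and 37.5 ± 12.0 (SD, n = 2 libraries each). The log2 fold change of Igf2 was -4.44 (SE 0.20, limma adjusted p = 5.54e-08) for ET-3, a 21.7-fold drop, and -4.16 (SE 0.20, limma adjusted p = 9.44e-08) for NT, a 17.8-fold drop. Among all tested genes, 2.28% had a log2 fold change as low as or lower than that of Igf2 under ET-3, and 2.46% under NT. The 8 markers of muscle differentiation moved the same way, each downregulated more than 2-fold by either ligand, against 14.9% (ET-3) and 13.2% (NT) of all tested genes. Their values summed to 13438 and 14912 in DMSO cultures, 492 and 537 after ET-3 and 510 and 391 after NT. Whether the change of Igf2 is part of this shift was not tested.

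Igf1 (chr10:87858265-87937042, plus strand), the ligand best known as the mediator of growth hormone and as a product of regenerating muscle, was close to the detection limit. Its values were 8 and 11 in DMSO cultures, 0 and 1 after ET-3 and 0 and 2 after NT. The treated libraries again lay below both DMSO libraries. In reads, both DMSO libraries together held 18, those with ET-3 held 1 and those with NT held 2 or 3, since the scaling of NT replicate 2 gives the same value for both. Scaled by depth, the ratio of DMSO to ET-3 was 16.7 (95% exact binomial interval 2.64 to 696) and the ratio of DMSO to NT was 7.78 (2.27 to 41.2) with 3 reads or 11.7 (2.79 to 104) with 2, with intervals that cover counting error only. Without the filter on low values, the log2 fold changes of Igf1 were -2.88 (limma adjusted p = 0.0140) for ET-3 and -2.58 (limma adjusted p = 0.0218) for NT.

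The receptors fell less than Igf2 did, a difference that was not tested. Igf2r (chr17:12682406-12769664, minus strand), the clearance receptor for IGF2, had values of 2312 and 2514 in DMSO cultures, 1287 and 1277 after ET-3 and 1256 and 1297 after NT. The treated libraries were close to each other and well below DMSO. Igf2r changed by a log2 fold change of -0.91 (SE 0.05, limma adjusted p = 1.54e-07) under ET-3 and -0.92 (SE 0.05, limma adjusted p = 1.61e-07) under NT, just under the 2-fold limit.

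Igf1r (chr7:67952827-68233668, plus strand), the signaling receptor for both ligands, had values of 1093 and 1098 in DMSO cultures, 858 and 885 after ET-3 and 925 and 995 after NT. The groups did not overlap, and NT lay between DMSO and ET-3. Its difference from ET-3 did not pass the threshold (limma adjusted p = 0.151). Under ET-3 the log2 fold change was -0.33 (SE 0.05, limma adjusted p = 0.000191), a 1.26-fold difference. Under NT it was -0.19 (SE 0.05, limma adjusted p = 0.00613), a 1.14-fold difference. The NT call for Igf1r was the least firm of the family. With each library scaled to its total, it was -0.08 (limma adjusted p = 0.187). It also missed the threshold without DMSO replicate 2 (limma adjusted p = 0.0564), without NT replicate 1 (limma adjusted p = 0.0715) and with averaged treated pairs (limma adjusted p = 0.0732).

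Among the binding proteins, Igfbp7 fell the most. Igfbp7 (chr5:77349240-77408041, minus strand) is a matrix-associated member of the wider family that binds IGFs only weakly. Its values were 199 and 192 in DMSO cultures, 20 and 24 after ET-3 and 32 and 30 after NT. Every treated library was far below DMSO. Both NT libraries were above both ET-3 libraries, a difference that did not pass the threshold (limma adjusted p = 0.172). The log2 fold change was -3.10 (SE 0.18, limma adjusted p = 2.60e-07) for ET-3, 8.57-fold, and -2.62 (SE 0.18, limma adjusted p = 9.01e-07) for NT, 6.14-fold. Markers of smooth muscle cells and pericytes fell in the same libraries, 6 of 6 tested under each ligand, with sums of 4423 and 5032 with DMSO and 1032 to 1209 in the treated libraries. Of the 8 listed markers, Abcc9 (851 and 835 in DMSO cultures, 0 to 4 in the treated libraries), Pdgfrb (227 and 278, 3 to 13) and Rgs5 (117 and 150, 2 to 5) fell to near 0. Notch3 and Acta2 fell in part, Cspg4 fell the least, and Myh11 and Kcnj8 were at 0 to 4 in every library. The 8 markers of muscle differentiation also fell, from sums of 13438 and 14912 with DMSO to 391 to 537 with a ligand. The part of either kind of cell in the Igfbp7 values was not tested.

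Igfbp3 (chr11:7206086-7213923, minus strand), which carries most IGF in blood and also acts on cells on its own, went the other way. It had values of 293 and 348 in DMSO cultures, 703 and 656 after ET-3 and 567 and 570 after NT. All treated libraries exceeded DMSO. Those of ET-3 exceeded those of NT, a difference that did not pass the threshold (limma adjusted p = 0.109). The log2 fold change was 1.09 (SE 0.08, limma adjusted p = 1.09e-06) under ET-3, 2.12-fold, and 0.83 (SE 0.08, limma adjusted p = 7.90e-06) under NT, 1.78-fold. The 2-fold call for ET-3 rested on DMSO replicate 1, without which the log2 fold change was 0.96. With averaged treated pairs the change under NT missed the threshold (limma adjusted p = 0.0690).

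Igfbp2 and Igfbp6 were reduced to about the same extent as Igf2r. Igfbp2 (chr1:72824503-72852474, plus strand), a binding protein for both ligands, had values of 291 and 245 in DMSO cultures, 119 and 138 after ET-3 and 128 and 123 after NT. Its log2 fold change was -1.05 (SE 0.11, limma adjusted p = 2.01e-05) for ET-3 and -1.08 (SE 0.11, limma adjusted p = 1.73e-05) for NT. The treated libraries overlapped each other and stayed below DMSO. Without DMSO replicate 1 these changes of Igfbp2 were -0.93 and -0.96, inside the 2-fold limit, as they were with each library scaled to its total (-0.96 and -0.97) and, for ET-3, without ET-3 replicate 1 (-0.95). With averaged treated pairs Igfbp2 missed the threshold narrowly, with limma adjusted p-values of 0.0531 and 0.0541. Igfbp6 (chr15:102144362-102149511, plus strand), which prefers IGF2 over IGF1, had values of 90 and 81 in DMSO cultures, 43 and 42 after ET-3 and 44 and 45 after NT. Here the 4 treated libraries spanned 42 to 45. Its log2 fold change was -0.99 (SE 0.17, limma adjusted p = 0.000483) for ET-3 and -0.92 (SE 0.17, limma adjusted p = 0.000794) for NT, with the latter at an adjusted p of 0.0534 in limma with averaged treated pairs.

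Igfbp4 and Igfbp5 showed the smaller declines. Igfbp4 (chr11:99041244-99054392, plus strand), which mainly withholds IGFs from their receptor, had values of 207 and 201 in DMSO cultures, 139 and 128 after ET-3 and 126 and 127 after NT. The 4 treated libraries stayed below DMSO, with NT just below ET-3, a difference that did not pass (limma adjusted p = 0.703). Igfbp4 fell by 0.61 on the log2 scale under ET-3 (SE 0.09, limma adjusted p = 0.000239). Under NT it fell by 0.68 (SE 0.09, limma adjusted p = 0.000110). Igfbp5 (chr1:72857932-72874884, minus strand), a matrix-binding form that myoblasts secrete, had values of 2934 and 3183 in DMSO cultures, 2515 and 2562 after ET-3 and 2328 and 2149 after NT. The 4 treated libraries of Igfbp5 all lay below DMSO. Between NT and ET-3, Igfbp5 missed the threshold (limma adjusted p = 0.105), and no direction is given. Its log2 fold change was -0.27 (SE 0.05, limma adjusted p = 0.00153) for ET-3 and -0.45 (SE 0.05, limma adjusted p = 4.85e-05) for NT. With averaged treated pairs neither change of Igfbp5 passed (limma adjusted p = 0.118 and 0.0653). Igfbp2 and Igfbp5 are neighbours on chromosome 1 that point towards each other, 5457 bases apart.

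**Figure D2:**
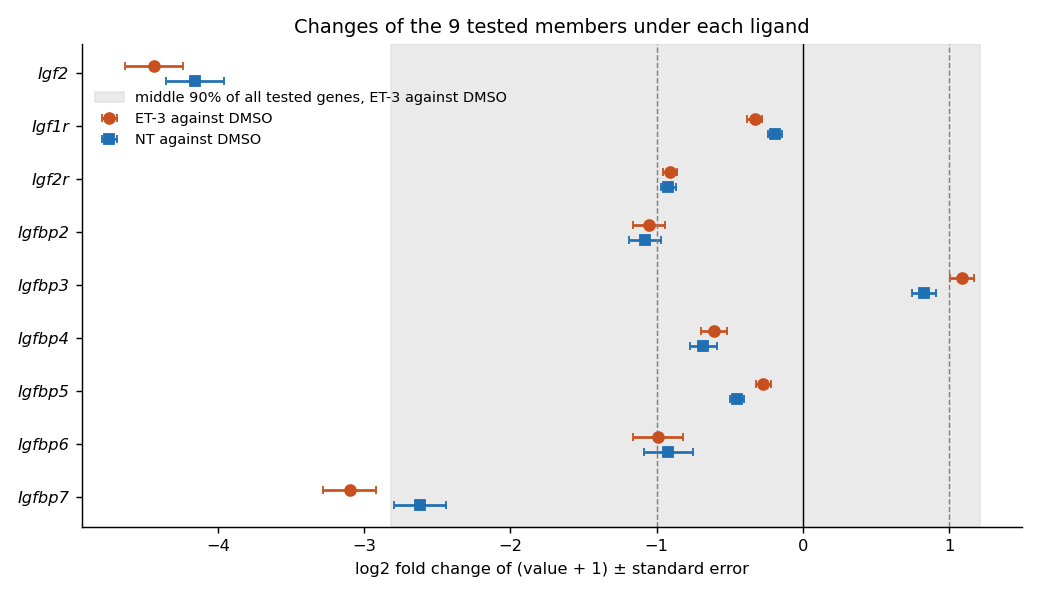
Log2 fold change of (value + 1) against DMSO with its standard error (limma, 2 libraries per group) for the 9 tested members, ET-3 as circles and NT as squares. Dashed lines mark 2-fold, and the grey band from -2.82 to 1.21 holds the middle 90% of all tested genes under ET-3, with Igf2 (-4.44) and Igfbp7 (-3.10) outside it on the left.

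The direct comparison of the ligands asked whether NT and ET-3 differ. None of the 9 tested members differed between NT and ET-3 by limma after adjustment (0 of 9, against 2.69% of all tested genes). At an unadjusted limma p under 0.05 there were 4 of 9, against 2765 of all 13921 tested genes. With voom weights on the recovered reads, 2 members passed, against 896 of all 13921 tested genes. They were Igfbp3 (log2 fold change -0.25, limma adjusted p = 0.0146) and Igfbp5 (-0.18, limma adjusted p = 0.0196), both lower with NT in that fit. With a trend against read coverage removed, an alternative chosen after seeing the data, the difference for Igfbp5 changed sign to 0.09 (limma adjusted p = 0.498) and that for Igfbp3 was -0.16 (limma adjusted p = 0.399), so no direction is given for Igfbp5. In the limma fit of the deposited values, the 95% interval of the NT minus ET-3 difference on the log2 scale was -0.43 to -0.08 for Igfbp3 and -0.30 to -0.06 for Igfbp5. For Igfbp7 it was 0.08 to 0.88 around 0.48, and for Igf1r 0.03 to 0.25 around 0.14. The interval for Igf2 was wide, -0.17 to 0.74. Those of Igf2r (-0.12 to 0.10) and Igfbp2 (-0.28 to 0.22) were centred near 0. The intervals are not adjusted for the number of genes, and a p that misses the threshold does not show that the ligands act alike.

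**Figure D3:**
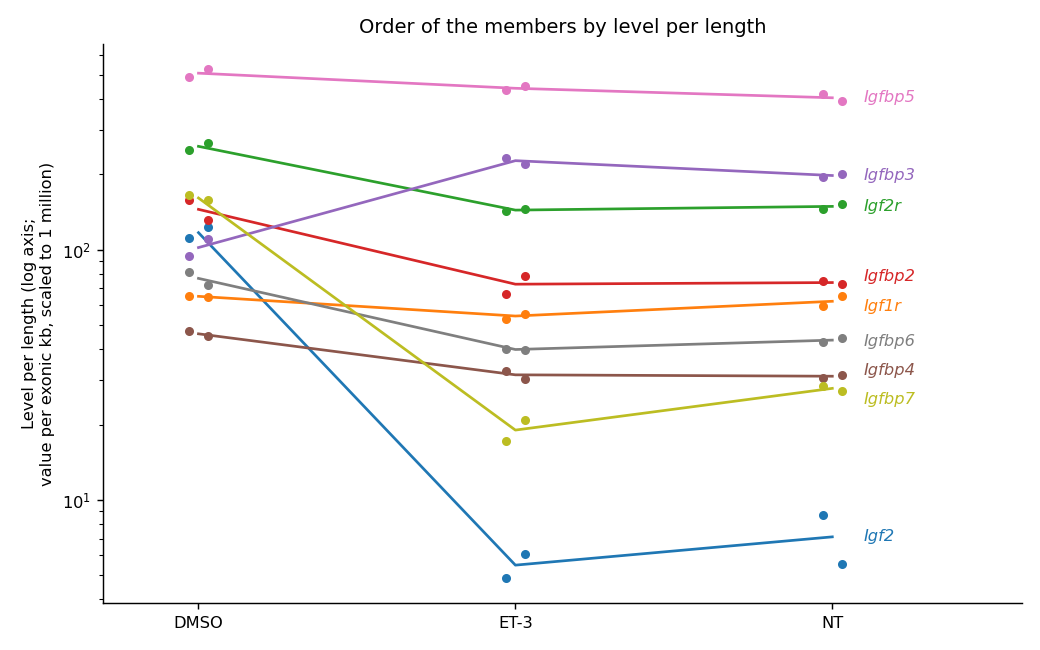
Level per length of the 9 tested members on a log axis, as the value per kilobase of exons scaled to the same sum over all genes in each library, with a dot per library and a line through the group means. Igfbp5 is highest in each group (508, 442 and 405), Igfbp3 crosses above Igf2r in the treated groups, and Igf2 drops from 117 to 5.48 and 7.11.

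Levels of different genes were compared per exonic length, as values per kilobase scaled so that all genes of a library sum to 1000000. With DMSO the order by mean level was Igfbp5 (508), Igf2r (259), Igfbp7 (161), Igfbp2 (145), Igf2 (117), Igfbp3 (102), Igfbp6 (76.8), Igf1r (65.1), Igfbp4 (46.1) and Igf1 (0.957). Neighbours in this order had separate libraries except Igfbp7 and Igfbp2. With ET-3 the order was Igfbp5 (442), Igfbp3 (227), Igf2r (144), Igfbp2 (72.8), Igf1r (54.3), Igfbp6 (39.9), Igfbp4 (31.6), Igfbp7 (19), Igf2 (5.48) and Igf1 (0.0532). The order with NT was the same as with ET-3, and every pair of neighbours had separate libraries in both. Igfbp3 thus moved from place 6 with DMSO to place 2 with either ligand, while Igfbp7 moved from place 3 to place 8 and Igf2 from 5 to 9. By value without division by length, Igfbp3 moved from place 5 to 4, Igfbp7 from 8 to 9 and Igf2 from 4 to 8.

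The mixture of binding-protein transcripts changed more than its sum. The summed level per length of Igfbp2 to Igfbp7 was 1037 and 1043 in DMSO cultures, 823.7 and 840.4 after ET-3 and 790.7 and 767.9 after NT. Igfbp5 made up about the same share throughout, 47.3% and 50.4% with DMSO and 51.1% to 53.5% in the treated libraries. Igfbp3 made up 9.07% and 10.6% of the sum in DMSO cultures, 28.3% and 26.3% after ET-3 and 24.7% and 26.0% after NT. Igfbp7 made up 15.9% and 15.1% in DMSO cultures, 2.08% and 2.49% after ET-3 and 3.61% and 3.54% after NT. In the treated libraries Igfbp3 thus took the place next to Igfbp5. The share of Igfbp2 was 15.3% and 12.6% with DMSO and 8.11% to 9.51% with a ligand. Without division by length, Igfbp5 made up 70.6% to 74.9% in all libraries, Igfbp3 7.30% and 8.19% with DMSO and 17.6% to 19.9% with a ligand, and Igfbp7 4.96% and 4.52% with DMSO and 0.565% to 0.992% with a ligand. Shares of a sum depend on each other, and no test was run on them.

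**Figure D4:**
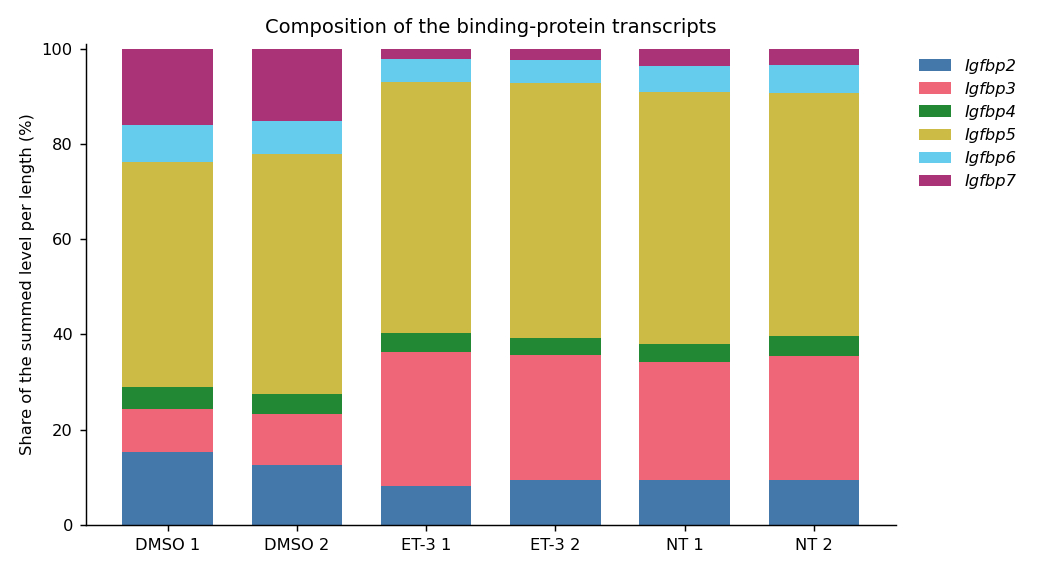
Share of each binding protein in the summed level per length of Igfbp2 to Igfbp7, in percent, with a stacked bar per library. The Igfbp3 part widens from 9.07% and 10.6% with DMSO to 24.7% to 28.3% with a ligand, while the Igfbp7 part shrinks from 15.1% and 15.9% to 2.08% to 3.61%.

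Several members overlap other genes, which bears on their values because reads that fell on more than 1 gene were left out of the count. Igf2 shares 3596 of its 5723 exonic bases (62.8%) on the same strand with Gm49394, a listed gene with values of 0 and 2 in DMSO cultures and 0 in all treated libraries. The values of Igf2 therefore rest on 2127 bases (37.2%) if the count used strand, and on 2029 (35.5%) if it did not, because of the 98 bases in common with Igf2os on the opposite strand. Per base of the latter, its level with DMSO was 330, which is place 2 in the family rather than 5, while the ratio between groups does not depend on the length used. Igf2os had values of 93 and 84 in DMSO cultures and 5 to 7 in the treated libraries. Its log2 fold change was -3.79 (limma adjusted p = 1.64e-06) for ET-3 and -3.48 (limma adjusted p = 3.17e-06) for NT. The labels and the methods name different library kits, 1 of them stranded, so reads of Igf2 and Igf2os may not have been told apart where they overlap. Mir483, inside an Igf2 intron, had values of 4 and 8 in DMSO cultures and 0 or 1 in the treated libraries.

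Airn, the noncoding RNA that runs through Igf2r on the opposite strand of the paternal allele, shares no exonic base with Igf2r. Its values were 185 and 205 in DMSO cultures, 52 and 38 after ET-3 and 51 and 43 after NT, and its log2 fold changes were -2.11 (limma adjusted p = 4.30e-06) and -2.03 (limma adjusted p = 5.99e-06). Airn thus moved in the same direction as Igf2r. If the count did not use strand, reads of unspliced Igf2r may be among those of Airn, which was not tested. Polr2b, a subunit of RNA polymerase that shares 85 bases (7.03%) with Igfbp7 on the opposite strand, had values of 836 and 863 in DMSO cultures and 899 to 974 in the treated libraries. It did not move with Igfbp7.

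The other genes of the pathway were less uniform than the family. Of the receptor family and adaptors, 14 of 17 were tested. Under ET-3, 2 were higher, 7 lower and 5 did not pass, and under NT 3 were higher, 9 lower and 2 did not pass, with median log2 fold changes of -0.13 and -0.17. Over all tested genes 30.6% were higher and 33.2% lower under ET-3, 29.7% and 32.5% under NT, and the median was -0.01 in both, and these shares hold for the next lists too. Insr, the insulin receptor, which can pair with IGF1R, had values of 442 and 484 in DMSO cultures, 325 and 362 after ET-3 and 351 and 398 after NT (log2 fold changes -0.43 and -0.31). Of the adaptors that dock on these receptors, Irs2 had log2 fold changes of -0.47 and -0.50, and Irs1 of 0.17 and 0.18. Past the 2-fold limit were Socs3 and Grb14, inhibitors of receptor signaling. Socs3 had values of 507 and 487 in DMSO cultures and 137 to 151 in the treated libraries (log2 fold changes -1.81 and -1.78, limma adjusted p = 4.72e-08 and 5.66e-08). Grb14 had 28 and 40 in DMSO cultures and 6 to 12 in the treated libraries (-1.85 and -2.12, limma adjusted p = 0.00188 and 0.000848). Shc1, a further adaptor, was higher (0.49 and 0.41), as was Sh2b2 under NT (0.25), both chosen after their values were seen.

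Of the proteases that cut binding proteins and their partners, 8 of 14 were tested. Under ET-3, 2 were higher, 3 lower and 3 did not pass, and under NT 2 were higher, 4 lower and 2 did not pass, with medians of -0.14 and -0.24. Under ET-3 these counts are near the shares over all tested genes, 30.6% higher and 33.2% lower. The stanniocalcins, which block the pappalysin protease that cuts IGFBP4, were lower. Stc2 had values of 594 and 561 in DMSO cultures, 313 and 296 after ET-3 and 282 and 320 after NT (log2 fold changes -0.92 and -0.94). Stc1 had 29 and 30 in DMSO cultures, 0 and 1 after ET-3 and 5 and 4 after NT. In reads scaled by depth, the ratio of DMSO to ET-3 for Stc1 was 51.1 (exact binomial interval 8.79 to 2050) and the ratio of DMSO to NT was 6.48 (3.36 to 13.7). Pappa, the protease itself, lay at 0 to 3 in every library and was not tested. The serine protease Htra3 had values of 210 and 213 in DMSO cultures, 60 and 72 after ET-3 and 96 and 91 after NT (-1.67 and -1.17). The members of this list that rose were Adam12 (0.64 and 0.76), a metalloprotease that cuts IGFBP3 and IGFBP5, and the endocytic receptor Lrp1 (0.63 and 0.62), chosen after their values were seen. Ctsd, a lysosomal protease also named after its values were seen, passed between NT and ET-3 in the main fit (-0.35, limma adjusted p = 0.0400). No gene passed in this comparison without the filter on low values, with the replicate block or with only these 2 groups fitted. The difference for Ctsd thus depends on the fit.

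Of the genes known to act on Igf2 or its transcript, 9 of 12 were tested, and 4 were higher and 5 lower under each ligand, with medians of -0.33 and -0.37. Those that bind the transcript were lower. Igf2bp1 had values of 32 and 30 in DMSO cultures, 6 and 9 after ET-3 and 7 and 10 after NT (log2 fold changes -1.93 and -1.77, limma adjusted p = 0.000613 and 0.00115). Igf2bp3 had 33 and 19 in DMSO cultures and 10 to 16 in the treated libraries (-1.18 and -0.93, limma adjusted p = 0.0157 and 0.0460). Igf2bp2 had 771 and 714 in DMSO cultures and 554 to 595 in the treated libraries (-0.33 and -0.37). H19, the maternally expressed RNA 72.6 kb from Igf2 that shares its enhancers, had values of 1943 and 2222 in DMSO cultures, 1452 and 1389 after ET-3 and 1224 and 1093 after NT (-0.55 and -0.84). These changes were nearer to 0 than those of Igf2, a difference that was not tested. Hmga2, a chromatin protein upstream of Igf2bp2, rose from 802 and 726 in DMSO cultures to 1575 and 1512 after ET-3 and 1360 and 1282 after NT (1.02 and 0.79, limma adjusted p = 2.04e-07 and 1.27e-06). The remaining higher genes were E2f3, Ctcf and Plagl1 (0.17 to 0.52), chosen after their values were seen. Over the 3 lists, ET-3 lowered 15 genes and NT 18, which became 6 and 7 with averaged treated pairs, while the genes called in either direction over the whole table fell from 8873 to 4116 and from 8659 to 3586. Among the listed genes named here, Insr, Irs1, Irs2, Grb14, H19, Igf2bp2, Igf2bp3 and Plagl1 lost their calls under both ligands with averaged pairs, as did Sh2b2 and Ctsd under NT, with limma adjusted p-values of 0.0529 (H19 under NT) to 0.258 (Igf2bp3 under NT).

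**Figure D5:**
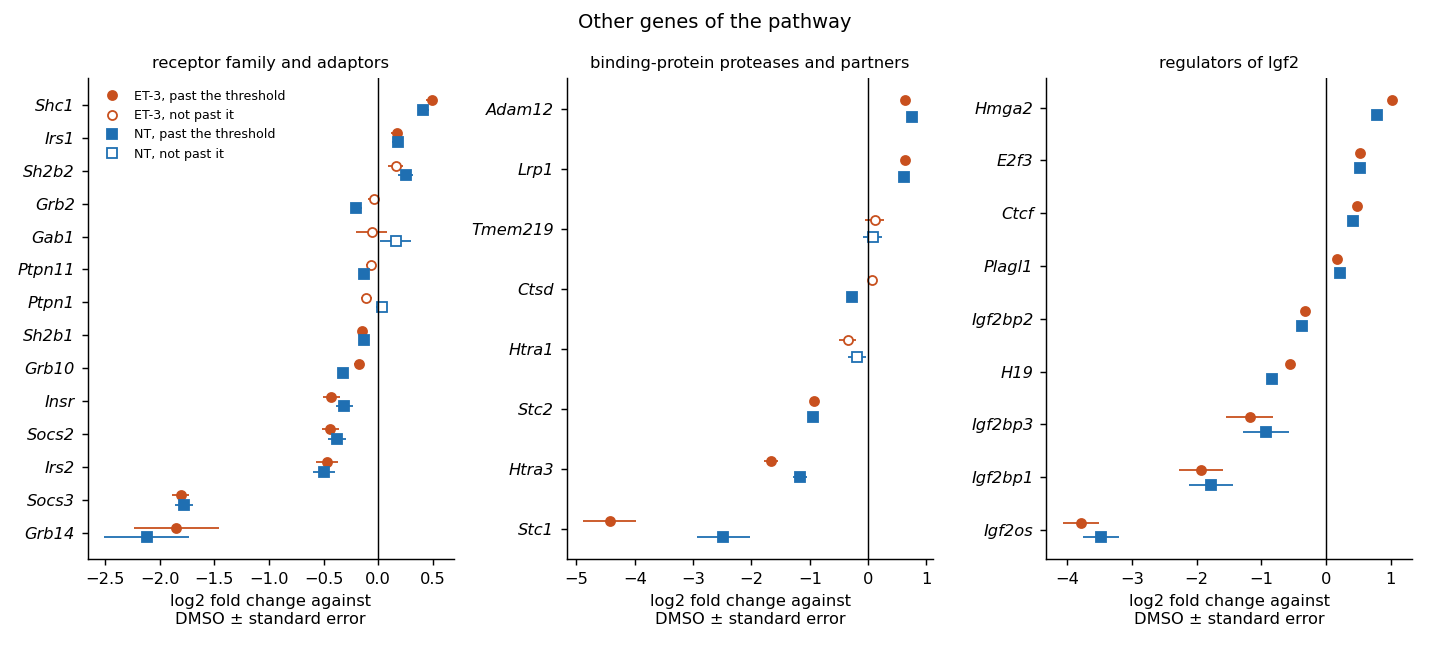
Log2 fold change against DMSO with its standard error for the tested genes of the 3 pathway lists, ET-3 as circles and NT as squares, filled where the limma adjusted p is at most 0.05. Stc1, Igf2os, Igf2bp1, Grb14 and Socs3 lie far to the left and Hmga2 (1.02 and 0.79) farthest to the right of its panel.

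For each tested member, the gene with the most similar profile over the 6 libraries was found by the root mean square distance between centred log2(value + 1). For Igf2 this was Rian, an imprinted long noncoding RNA (distance 0.094), with values of 687 and 651 in DMSO cultures, 27 and 30 after ET-3 and 48 and 28 after NT. For Igfbp7 it was the collagen gene Col5a3 (distance 0.070), with 929 and 945 in DMSO cultures, 98 and 111 after ET-3 and 163 and 133 after NT. For Igfbp3 it was Errfi1, an inhibitor of the EGF receptor (distance 0.053), with 841 and 928, 1878 and 1767, and 1494 and 1443. The nearest genes of the other members were Siah2 for Igf1r, Jam3 for Igf2r, A830082N09Rik for Igfbp2, Apool for Igfbp4, Plau for Igfbp5 and Klf3 for Igfbp6, at distances of 0.018 to 0.054. Within the family the closest pairs were Igf2r and Igfbp6 (0.09) and Igfbp2 and Igfbp6 (0.10), and the farthest was Igf2 and Igfbp3 (2.50).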

How the data were processed

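FACS-purified MuSCs treated with DMSO, ET-3 or NT were profiled by single-end RNA-seq. Submitters' processing notes name Trimmomatic 0.38, STAR 2.7.7a, featureCounts 1.6.5 and DESeq2 1.30.0, and the paper's methods name Reaper and other versions. Reads were aligned to mm10 (GRCm38) and counted on exons, without reads on several genes or regions. The values deposited by the authors are a read signal, whole-number counts multiplied by 1 factor per library (0.781 to 1.19) and rounded. This scaling is not described in the sources used here. Libraries summed to 4214458 to 4600575.

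Log2(value + 1) was tested with limma 3.58.1 (R 4.3.3; lmFit, eBayes with trend) over all 6 libraries, leaving out genes whose mean value was under 5, with Benjamini-Hochberg adjustment over 13921 genes in each of 3 comparisons. Fold changes on this scale understate those of low genes. Exonic lengths and overlaps came from GENCODE M21 (18920 genes matched by identifier), promoters from RefSeq. Members, pathway lists and tests were chosen with earlier results of these data known. Named genes were all members, listed genes changed at least 2-fold, Insr, Irs1, Irs2, H19, Igf2bp2, Pappa, Stc2, nearest profiles and overlapping genes. Alternatives covered filter, scaling, pseudocount, replicate block, 2-group fits, averaged pairs, voom weights, each library left out, removal of a coverage trend and the length used. Python 3.11.15 with pandas 2.3.3, numpy 2.4.6, scipy 1.17.1 and matplotlib 3.10.9 prepared tables and plots.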

Additional observations from a re-analysis of the deposited data

How the results depend on the processing

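Igf2, Igf2r, Igfbp4 and Igfbp7 stayed past the threshold and in the same direction against DMSO in all 17 alternatives run for each ligand, with Igf2 at -4.58 to -4.27 (ET-3) and -4.48 to -3.83 (NT) on the log2 scale and Igfbp7 at -3.23 to -2.90 and -2.66 to -2.48. With treated pairs averaged, 0 members were higher and 5 lower under NT. Of the 8 lower in the full fit, 4 stayed lower, and the other was Igf1, which reached the mean of 5 there only because averaging gives DMSO more weight. The number of members upregulated 2-fold by ET-3 ranged from 0 to 1 when each library was left out, the 0 without DMSO replicate 1. The number downregulated 2-fold was 2 to 4 over the alternatives for each ligand. With voom weights, 2 members differed between NT and ET-3, against 896 of all 13921 tested genes. The replicate numbers did not pair the libraries (correlations of deviations -0.01, -0.07 and -0.02). With the replicate block, 8 members were lower and 1 higher under each ligand and 8747, 8504 and 0 genes passed in the ET-3, NT and NT against ET-3 comparisons. Scaling to library totals moved the median of all tested genes to 0.08 and 0.10. Without division by length Igf2 ranked 4 with DMSO, and 2 per unshared base (chosen after seeing the data). With a coverage trend removed, also chosen after seeing the data, 1 gene and 0 members differed between NT and ET-3, and the Igfbp5 difference changed sign from -0.18 to 0.09. The planned edgeR and DESeq2 fits were not run, since reads are not uniquely recovered where the factor is below 1. Where a library was left out, its partner was assumed to vary like the other groups. Averaged pairs leave the spread to the DMSO libraries alone. The low values of Igf1, Igf2 and Igfbp7 in treated cells limit the comparison of the ligands.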
